A study of Homo sapiens with 6 samples.

Results

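CPVL, the gene targeted by the hairpin of this study, was examined together with 9 genes that encode its relatives among the carboxypeptidases or its partners in the cathepsin A complex. The 10 genes were chosen by function, as CPVL, further serine and metallo-carboxypeptidases, and the complex partners NEU1 and GLB1. Every probe set whose Entrez identifier in the authors' deposited table is that of exactly 1 of these genes was taken, which gave 24 probe sets among 49293 that are not array controls, and 10 genes among 18837. Of the 10 genes, 3 had a single probe set (CPVL, SCPEP1 and NEU1) and 7 had several, up to 5 for CPM. The study measured polyadenylated RNA of the human glioma line U251 on Affymetrix 3' expression arrays. The cells had received, by lentivirus, a short hairpin RNA (shRNA), which directs the degradation of a matching transcript. The shCtrl group received a negative control hairpin and the shCPVL group a hairpin against CPVL, with 3 arrays each. The labels give no hairpin sequence and no time after delivery, and do not say whether the arrays of a group came from separate cultures or whether the cells were selected, so the spread behind each p-value is that of these arrays and may be technical.

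Carboxypeptidases remove amino acids from the C-terminal end of peptides and proteins. The serine type, with CPVL, cathepsin A (CTSA), SCPEP1 and PRCP, uses an active-site serine and works mostly in lysosomes and the secretory pathway, while the metallo type, with CPE, CPD, CPM and CPQ, uses bound zinc. CPVL was first described in human macrophages and its substrates are poorly known. Cathepsin A has a second task beside its peptidase activity: in the lysosome it binds the sialidase NEU1, which needs it to be active, and the beta-galactosidase GLB1, which it protects from degradation.

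As defining markers of the cell line, the glial transcripts GFAP (log2 value 10.17 in shCtrl), FABP7 (12.30) and SOX2 (12.02) were clearly measured. Of the 10 glioma and astroglial markers listed, only S100B (7.47) and OLIG2 (5.84) lay below the brightest macrophage marker, TYROBP (7.57). Of 10 macrophage and microglia markers, PTPRC (3.41), CD163 (4.07), P2RY12 (4.09) and CD14 (4.42) lay below 4.95, the mean of the array's background probe sets in shCtrl. Of these 4, only PTPRC also lay below 3.60, the median of that skewed background set. The other 6 lay above 4.95, up to TYROBP (7.57) and CD68 (7.03). Of 10 glioma and astroglial markers, 4 fell, namely GFAP (-1.01 on the log2 scale), FABP7 (-0.68), SLC1A3 (-0.56) and SOX9 (-0.38), and none of 10 macrophage and microglia markers passed the test (limma, adjusted p over all genes). Of 5 endothelial markers 0 passed, though KDR read 8.37 in shCtrl. Of 5 epithelial markers 1 passed, KRT18, which was higher by 0.23. Among all genes 19.9% passed, 8.38% higher and 11.5% lower. The summed signal of these 10 macrophage markers was 587 to 662 in shCtrl arrays and 625 to 688 in shCPVL arrays, on the linear scale. The array medians lay between 6.85 and 6.87. The hybridisation controls, bacterial RNA added to each array, read 10.74 ± 0.06 in the shCtrl arrays and 11.04 ± 0.10 in the shCPVL arrays (SD, n = 3 each). For the members, the difference after centring each array on these controls, which lowers every gene by 0.31, is given beside the value as deposited. That shift is common to all genes, so an adjusted p after this centring is not separate evidence for a single gene. The log2 distance between the 3' and 5' probe sets of GAPDH, a measure of RNA integrity, differed by -0.01 between the groups, and that of beta-actin by 0.00.

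Of the 24 probe sets, 7 passed the test (limma, adjusted p under 0.05 over all probe sets), against 18.5% of all probe sets. In shCPVL 2 were higher and 5 lower, where 7.93% of all probe sets were higher and 10.6% lower. Those 7 belonged to 3 of the 10 genes: CPVL and CPD were lower, and CTSA was higher. CPVL was the only one with a fold of at least 1.5, which 2.5% of all probe sets reached while passing the test. The shCtrl and shCPVL arrays did not overlap in 13 of the 24 probe sets, against 35% of all probe sets, and in 6 of the 10 genes by their brightest probe set, against 35.7% of all genes. The median difference of the 10 genes was -0.02, beside -0.01 for all genes, and the median size of the difference was 0.16, beside 0.09. Since RMA, the authors' normalization, makes the distributions of the arrays alike, each difference is relative to the bulk of the transcripts.

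**Figure D1:**
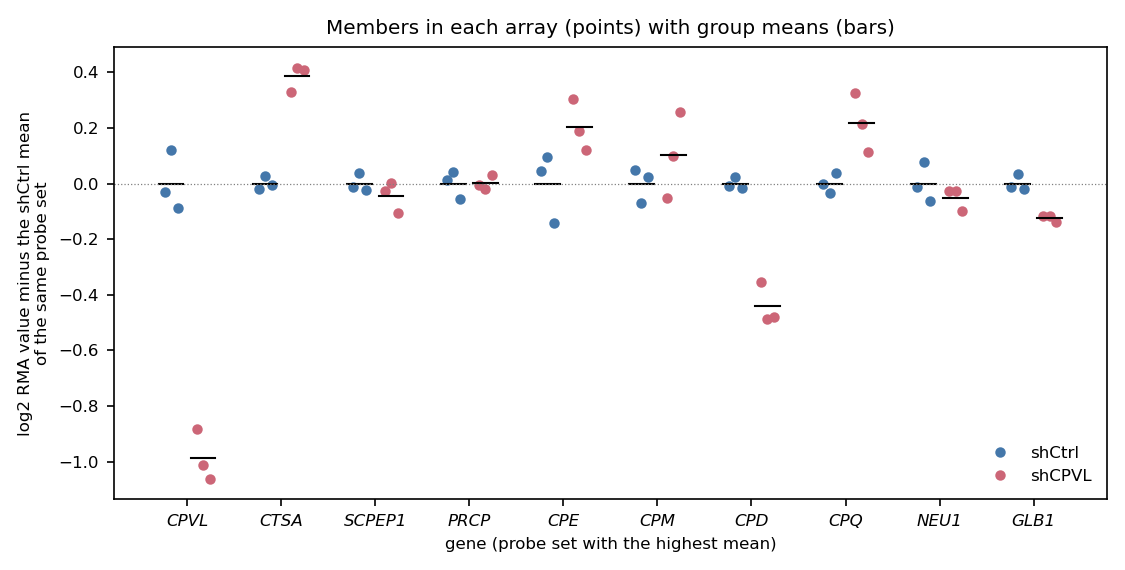
Log2 RMA value of each array, minus the shCtrl mean of the same probe set, for the probe set with the highest mean of each of the 10 genes; points are arrays (3 per group) and bars are group means. The shCPVL arrays lie far below the shCtrl arrays for CPVL (difference -0.99), below them for CPD (-0.44) and GLB1 (-0.12), and above them for CTSA (0.39), CPE (0.20) and CPQ (0.22).

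CPVL itself was read by 1 probe set (11717762_a_at), aligned in the authors' deposited table to the minus strand of chr7:29034848-29186153 in a build that is not named. Its log2 values were 8.24, 8.39 and 8.18 in shCtrl and 7.38, 7.25 and 7.21 in shCPVL. All shCPVL arrays were low and the groups were far from overlapping. The difference was -0.99 (SE 0.07, limma adjusted p = 5.93e-05 over all probe sets), so that 50.5% of the control signal was left (95% confidence interval 44.9% to 56.7%). An exact permutation test of the 6 arrays gave p = 0.1, its lowest possible value. Of all 18837 genes, 42, CPVL included, had a difference as low or lower. Leaving out any array gave -1.04 to -0.93, and centring on the hybridisation controls -1.29.

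The promoters of 3 members share a sequence that is set beside their unequal differences here. CACGTG is the core of the motif bound by the TFEB and MITF family, known as regulators of lysosomal genes. It was searched in windows of 250 bases before to 50 after each start site (RefSeq, GRCh38.p14). It reads the same on both strands. Of the 9 members with a window, CTSA, SCPEP1 and NEU1 held it and 6 did not, and of their 15 windows 3 held it, against 7.26% of all 35116 windows of that length. A start site without a window was not searched, so a gene without a match may hold CACGTG elsewhere. GLB1 was searched in 1 window only. CTSA held 2 copies, starting 42 and 25 bases before the start site, SCPEP1 1 copy at 27 bases and NEU1 1 copy at 126 bases. The longer form TCACGTGA, also searched, was in the windows of CTSA and SCPEP1 but not of NEU1, against 0.98% of all windows. The windows follow, 5' to 3' on the strand of the gene, with CACGTG in capitals: CTSA from the plus strand of chr20:45891085-45891384, SCPEP1 from the plus strand of chr17:56977881-56978180 and NEU1 from the minus strand of chr6:31862772-31863071.
CTSA: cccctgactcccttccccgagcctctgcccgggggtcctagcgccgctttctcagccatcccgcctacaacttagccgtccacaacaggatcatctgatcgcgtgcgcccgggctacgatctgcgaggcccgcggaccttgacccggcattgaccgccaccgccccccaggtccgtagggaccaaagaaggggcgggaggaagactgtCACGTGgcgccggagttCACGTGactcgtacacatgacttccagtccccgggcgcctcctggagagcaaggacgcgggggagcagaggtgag
SCPEP1: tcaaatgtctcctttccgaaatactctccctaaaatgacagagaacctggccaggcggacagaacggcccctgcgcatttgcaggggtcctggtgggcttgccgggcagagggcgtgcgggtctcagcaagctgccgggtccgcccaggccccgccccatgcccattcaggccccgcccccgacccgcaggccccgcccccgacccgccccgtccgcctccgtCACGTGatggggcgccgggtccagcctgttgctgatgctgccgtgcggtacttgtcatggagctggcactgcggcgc
NEU1: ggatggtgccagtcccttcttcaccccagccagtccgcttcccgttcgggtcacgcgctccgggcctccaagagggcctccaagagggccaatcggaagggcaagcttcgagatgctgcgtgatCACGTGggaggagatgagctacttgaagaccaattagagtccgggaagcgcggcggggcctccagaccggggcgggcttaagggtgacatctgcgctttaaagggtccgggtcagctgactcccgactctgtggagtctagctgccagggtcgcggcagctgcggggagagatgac
Of these 3 genes, CTSA passed the test with a difference of 0.39, and SCPEP1 (-0.04) and NEU1 (-0.05) did not. The match describes the letters of the window and not a bound site.

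CTSA was the serine relative that rose. It is read by 2 probe sets, both of types (s_at and x_at) whose probes can also match other transcripts. The brighter, 11748622_s_at, read 10.65, 10.70 and 10.67 in shCtrl and 11.00, 11.09 and 11.08 in shCPVL. The other, 11721499_x_at, read 10.46, 10.57 and 10.48 in shCtrl and 10.79, 10.84 and 10.77 in shCPVL. In both, every shCPVL array was above every shCtrl array, and the arrays of a group lay within 0.11 of each other. The differences were 0.39 (SE 0.05, limma adjusted p = 0.00141) and 0.30 (SE 0.05, limma adjusted p = 0.00632), or 1.31-fold and 1.23-fold. The hybridisation controls were higher by 0.31 in the same arrays. With each array centred on them, which moved the median of all genes to -0.31, the differences were 0.08 (adjusted p = 0.49) and -0.011 (adjusted p = 0.92). The call was also lost when tested against a fold of 1.2 (adjusted p = 0.42).

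SCPEP1, a serine carboxypeptidase studied in mice for its part in vascular remodelling, was read by 1 probe set. Its values were 8.88, 8.93 and 8.87 in shCtrl and 8.87, 8.90 and 8.79 in shCPVL. The groups overlapped, and the difference of -0.04 had a 95% confidence interval of -0.17 to 0.08 (limma adjusted p = 0.67). PRCP, which trims angiotensin and melanocortin peptides after a proline, was read by 3 probe sets. The brightest, 11752948_a_at, read 10.08, 10.11 and 10.01 in shCtrl and 10.06, 10.05 and 10.10 in shCPVL, a difference of 0.00 with an interval of -0.12 to 0.12. The other PRCP probe sets differed by 0.03 and 0.13, the latter with an interval of -0.05 to 0.31, and the groups overlapped in all 3. These intervals allow for PRCP and SCPEP1 changes smaller than that of CTSA and do not show that the transcripts were unaffected. Centred on the hybridisation controls, SCPEP1 was at -0.35 (adjusted p = 0.0029) and PRCP at -0.30 (adjusted p = 0.0089), both called lower. Both calls came with the shift shared by all genes, under which 14759 of 18837 genes were called.

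The partners of cathepsin A were not called higher. NEU1, the lysosomal sialidase, was read by 1 probe set at 10.19, 10.28 and 10.14 in shCtrl and 10.18, 10.18 and 10.10 in shCPVL. The groups overlapped, with a difference of -0.05 and an interval of -0.18 to 0.08 (limma adjusted p = 0.65). Centred on the hybridisation controls it was -0.36 and called lower (adjusted p = 0.0025), a call that came with the shift shared by all genes. GLB1, which removes terminal galactose from gangliosides and keratan sulfate, was read by 3 probe sets. The brightest, 11729661_a_at, read 10.45, 10.49 and 10.44 in shCtrl and 10.35, 10.34 and 10.32 in shCPVL. Its groups did not overlap, and neither did those of 11729662_x_at and 11715657_a_at. The differences were small, at -0.12 (interval -0.24 to -0.01), -0.16 (-0.30 to -0.02) and -0.07 (-0.19 to 0.05), and none passed over all probe sets (limma adjusted p = 0.13, 0.11 and 0.46). In the authors' deposited table the first pair of them had an FDR of 0.0190 and 0.0136. That table's p-values are close to those of limma with an intensity trend, under which both also passed here (adjusted p = 0.019 and 0.013). Both passed with array weights too (limma adjusted p = 0.023 and 0.0047), where 9752 of 18837 genes were called. Centred on the hybridisation controls, the brightest was at -0.43 and called lower (adjusted p = 0.00031), again with that shared shift.

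Because a shift of a whole array cancels within it, CTSA was also set against its partners array by array, in pairs chosen with these results known. The log2 distance of CTSA from GLB1 grew by 0.51 from shCtrl to shCPVL, between 0.43 and 0.56 for any single pair of arrays. Its distance from NEU1 grew by 0.44 (0.30 to 0.56 over pairs of arrays), from SCPEP1 by 0.43 and from PRCP by 0.38. Against CPVL it grew by 1.37. A sixth pair, CPE against CPD, moved apart by 0.65. In all 6 the groups did not overlap, and the exact permutation test gave p = 0.1 for each, also after adjustment over the 6, the smallest possible. Such a distance shows unequal change and not which of the genes changed.

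Among the metallo-carboxypeptidases, CPD fell. CPD, a membrane enzyme of the trans-Golgi network, removes basic residues from proteins cut by furin-like proteases. Its brightest probe set, 11727131_at, read 9.81, 9.84 and 9.80 in shCtrl and 9.46, 9.33 and 9.33 in shCPVL. Every shCPVL array was lower, and the difference was -0.44 (SE 0.06, limma adjusted p = 0.00109), leaving 73.6% of the control signal (67.3% to 80.6%). The other 3 probe sets, none of a type shared with other transcripts, also fell, by 0.39, 0.32 and 0.27 (adjusted p = 0.00197, 0.0074 and 0.00682), with no overlap in any. CPD is thus the member with the most probe sets that passed, 4 of 4. The call was kept under every alternative but the test against a fold of 1.2 (adjusted p = 0.16). Taking the median over its probe sets gave -0.33, and centring on the hybridisation controls -0.75.

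CPE and CPQ were higher in shCPVL by amounts that did not pass over all probe sets. CPE, which trims basic residues from prohormones in secretory granules, read 7.34, 7.39 and 7.15 in shCtrl and 7.60, 7.49 and 7.42 in shCPVL at 11743576_at. The lowest shCPVL array lay just above the highest shCtrl array. Its difference was 0.20 (interval 0.03 to 0.38, limma adjusted p = 0.11), and that of 11743577_s_at was 0.30 (0.03 to 0.57, adjusted p = 0.12), which passed with an intensity trend (adjusted p = 0.034). CPQ, a peptidase of plasma and lysosomes that releases amino acids from short peptides, read 8.14, 8.10 and 8.18 in shCtrl and 8.46, 8.35 and 8.25 in shCPVL at 11717064_a_at. That is a difference of 0.22 without overlap (interval 0.07 to 0.37), at an adjusted p of 0.051 over probe sets and 0.047 over genes, so its call depends on the processing. It also passed over probe sets without shCPVL replicate 3 (0.27, adjusted p = 0.026), with quantile normalization again (0.24, adjusted p = 0.024), with an intensity trend (adjusted p = 0.016), with array weights (adjusted p = 0.0025) and without the lowest 40% of probe sets (adjusted p = 0.021). These 5 were the only ones of 18 alternatives that called CPQ. Centred on the hybridisation controls CPQ turned to -0.090 and CPE to -0.10, neither called. With CPQ included, 4 of the 10 genes passed over genes, against 19.9% of all genes. They were 2 higher and 2 lower, where 8.38% of all genes were higher and 11.5% lower. The count over genes was 3 after centring on the array median, with a robust variance model and with a replicate block. The second CPQ probe set, 11751795_a_at, differed by 0.08 and its groups overlapped.

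CPM, a carboxypeptidase anchored to the outer cell surface that cleaves kinins and other peptides with basic ends, was dim on these arrays. Its brightest probe set, 11731460_at, read 5.71, 5.58 and 5.68 in shCtrl and 5.61, 5.76 and 5.91 in shCPVL, with overlapping groups (difference 0.10, interval -0.08 to 0.29). The other 4 probe sets had shCtrl means of 4.63, 3.73, 3.35 and 2.94. All of these lie under 4.95, the mean of the array's own background set. The median of that skewed set was 3.60, and the brighter pair of the 4 lay above it. The 4 differed by -0.15 to 0.02. The brightest was at -0.20 (adjusted p = 0.073) after centring on the hybridisation controls.

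**Figure D2:**
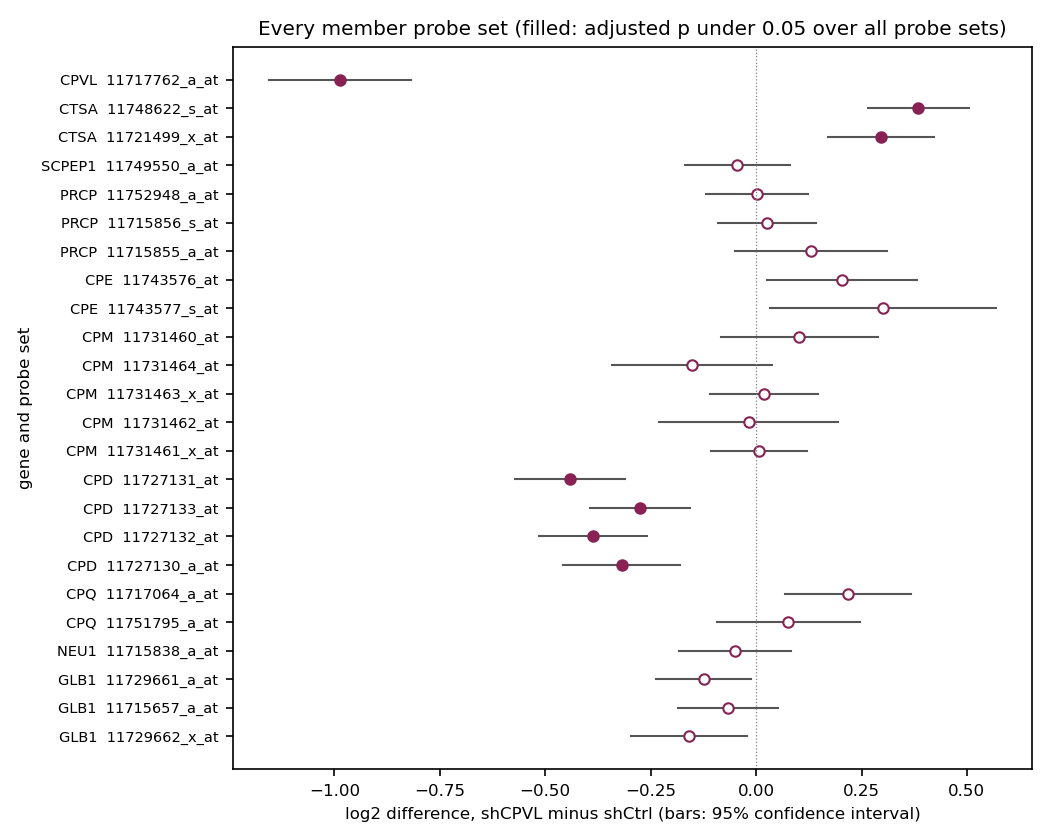
Log2 difference (shCPVL minus shCtrl) of each of the 24 probe sets with its 95% confidence interval, grouped by gene; filled points had an adjusted p under 0.05 over all probe sets. Filled points are the 1 probe set of CPVL, the 2 of CTSA on the right of 0 and the 4 of CPD on the left, while the 5 of CPM scatter around 0.

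Genes related to the members were counted in 7 lists, from the fit with 1 probe set per gene, beside 19.9% called among all genes. Of 24 measured genes listed as further metallocarboxypeptidases and their relatives, 2 rose and 0 fell (8.33%), with a median of -0.01 beside -0.01 for all genes. One of them, CPA4, a secreted enzyme that removes hydrophobic residues, moved more than any of the 10 members on the deposited scale. It rose from 10.68 ± 0.06 (SD, n = 3) to 12.07 ± 0.05 (SD, n = 3), a difference of 1.39 (SE 0.05, limma adjusted p = 2.73e-06). All 3 of its probe sets were called higher, the others at 1.71 and 1.52, and centring on the hybridisation controls left 1.08, beside -1.29 for CPVL. CPA6, an enzyme of the extracellular matrix, rose by 0.36 (SE 0.06), with 0.08 at its other probe set and 0.054, without a call, after that centring.

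Of 15 cathepsins and legumain, 5 rose and 0 fell (33.3%), with a median of 0.10. The aspartic protease gene CTSD rose by 0.35 (SE 0.05), the aminopeptidase gene CTSH by 0.32 (SE 0.06), the endopeptidase gene CTSL by 0.25 (SE 0.05) and CTSO by 0.24 (SE 0.05). The fifth, CTSF, named after its value was seen, rose by 0.24 (SE 0.06). Centred on the hybridisation controls, none of the first 4 passed (-0.064 to 0.042), and the list had 7 calls, all lower, with a median of -0.20. Of all 18837 genes, 14759 were called under that centring, 14475 of them lower, with a median of -0.31. The CTSH and CTSO calls were lost with the mean or median of their probe sets (0.19 for both). With shCtrl replicate 1 or shCPVL replicate 2 left out, 2 and 3 of the list passed. The CTSL and CTSF calls were lost in both cases, and that of CTSO without shCtrl replicate 1. CTSF also lost its call in the fit with the replicate number as a block. Of 9 serine and prolyl peptidases, 1 rose and 1 fell (22.2%; median 0.04). PREP, a cytosolic prolyl endopeptidase, fell by 0.37 (SE 0.05), with -0.36 at its second probe set, and the lysosomal tripeptidyl peptidase gene TPP1 rose by 0.34 (SE 0.04), with 0.05 to 0.34 over its 9 probe sets and no call with their median (0.11) or with centring on the hybridisation controls (0.029).

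Of 25 genes of sialidases, galactosidases, other glycan hydrolases and related lysosomal proteins, the setting of NEU1 and GLB1, 3 rose and 4 fell (28%, median -0.02). PSAP, the precursor of the saposins that present glycolipids to these enzymes, rose from 13.04 ± 0.05 to 13.29 ± 0.02 (SD, n = 3). GM2A, which encodes the activator of ganglioside GM2 breakdown, fell by 0.26 (SE 0.05) and the sulfatase gene ARSB by 0.37 (SE 0.07). The 4 PSAP probe sets were all called higher, whereas 2 of the 4 ARSB probe sets were called and its median gave -0.14 with no call. GLA (-0.24) and HEXA (0.20), named after their values were seen, were also called. PSAP did not pass after centring on the hybridisation controls (-0.059). Without shCtrl replicate 1 the count was 4, and GM2A lost its call there, without shCPVL replicate 2 and without probe sets of type s_at and x_at. Of 13 genes of mannose 6-phosphate sorting and lysosomal gene control, 1 rose and 2 fell (23.1%; median 0.01). GNPTG, a subunit of the enzyme that marks hydrolases for the lysosome, rose by 0.24 (SE 0.06), and the sorting genes GGA2 and SORT1 fell by 0.22 (SE 0.05) and 0.21 (SE 0.05). The list had 0 calls without shCtrl replicate 1 or without shCPVL replicate 2, the GGA2 call was lost without shCtrl replicate 2 or shCPVL replicate 1, and the GNPTG call without shCtrl replicate 3. With the median of the probe sets the GNPTG call was lost (0.17) and SORT1 turned to 0.10.

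Of 15 prohormone processing genes, the setting in which CPE and CPD act, 2 rose and 0 fell (13.3%; median 0.06). The granin gene SCG2 rose by 0.35 (SE 0.08) and the convertase gene PCSK5 by 0.26 (SE 0.07), the latter without a call in the fit with the replicate number as a block (adjusted p = 0.069). The list had 0 calls without shCtrl replicate 3 or shCPVL replicate 2, and 1 without shCtrl replicate 1 or shCPVL replicate 3. PCSK5 was not called without shCPVL replicate 1 either. After centring on the hybridisation controls SCG2 was at 0.041 and PCSK5 at -0.050, without calls. Of 19 kinin and angiotensin genes, whose peptides PRCP, cathepsin A and CPM can trim, 0 rose and 3 fell (15.8%; median -0.04). They were the peptidase genes ANPEP (-0.38, SE 0.08), THOP1 (-0.29, SE 0.05) and MME (-0.26, SE 0.05). ANPEP, at 5.25 in shCtrl, was dim and lost its call without shCtrl replicate 3 or shCPVL replicate 2. Of 5 MME probe sets 1 was called, and their median (-0.33) was not.

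**Figure D3:**
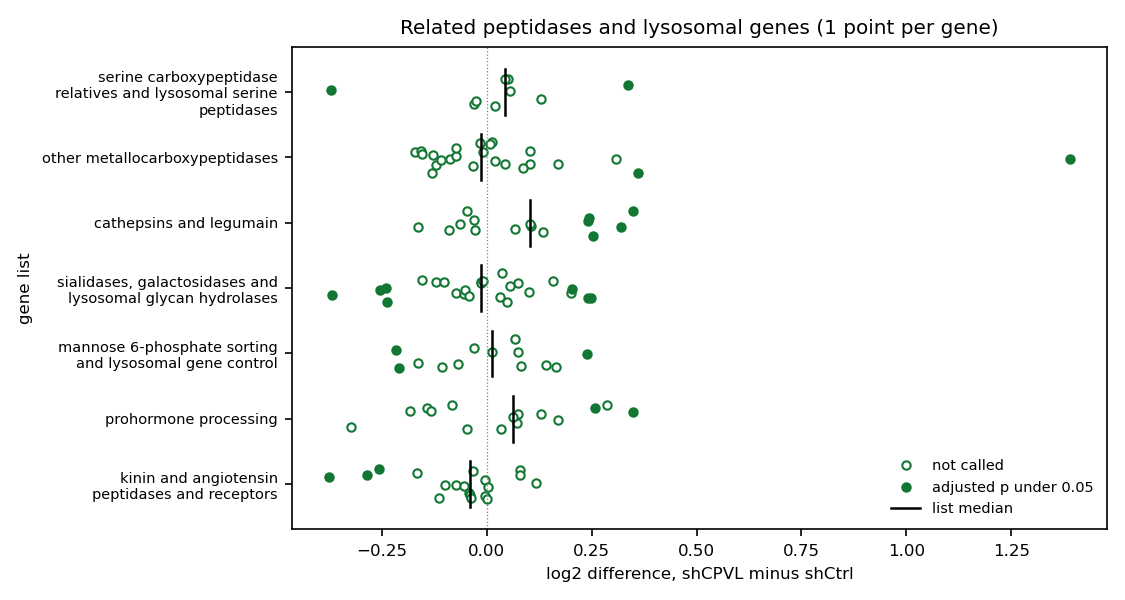
Log2 difference (shCPVL minus shCtrl) of every measured gene of the 7 lists, 1 point per gene; filled points had an adjusted p under 0.05 over all genes and vertical bars are list medians, which lie between -0.04 and 0.10. CPA4 stands alone at 1.39.

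The genes whose arrays most resembled those of CPVL were found by the root mean square distance over the 6 arrays after each gene was centred on its own mean. Among the 5 nearest were BMAL2 (distance 0.040 on the log2 scale, difference -0.96), CMTM4 (0.040, -0.96), NDP (0.040, -0.93) and the ceramide synthase gene CERS6 (0.041, -1.03). For CTSA they were SPSB1 (0.028, 0.36), SERTAD3 (0.029, 0.39), MEST (0.030, 0.42), LINC01000 (0.030, 0.36) and the antiviral gene ZC3HAV1 (0.032, 0.38). Other probe sets of CMTM4 gave -0.63 and -0.32, those of ZC3HAV1 0.16, 0.40 and 0.94, and that of LINC01000 -0.05. Closeness over 6 arrays in 2 groups says mainly that the group differences were of like size.

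**Figure D4:**
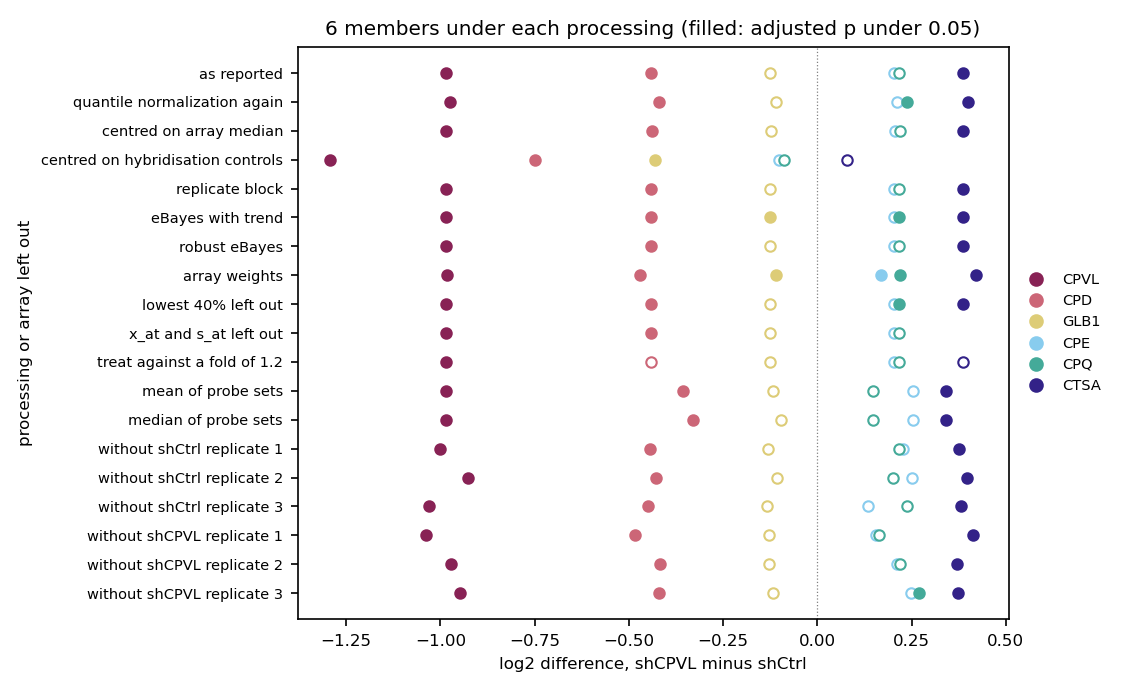
Log2 difference (shCPVL minus shCtrl) of 6 members under the reported processing and 18 alternatives, 1 row each; filled points had an adjusted p under 0.05. CPVL stays filled in every row, CPD and CTSA lose the call against a fold of 1.2, and centring on the hybridisation controls moves all 6 to the left, CTSA to 0.08.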

How the data were processed

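The log2 values of 49395 probe sets on 6 arrays were computed by the authors with RMA (submitters' processing notes); its version and the genome build are not given in the sources used here. RMA corrects background, equalises the distributions of the arrays and summarises probes, so a general change of RNA content cannot be seen, and folds of dim genes are understated. Per the file headers, a table of the authors' own comparison, deposited with them, lists for each probe set p-values, FDR, a log2 fold change, a linear ratio and a score (the signed fold), with Entrez identifiers and alignments. Symbols were looked up by identifier in RefSeq (GRCh38.p14, names and promoters).

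Differences (shCPVL minus shCtrl) were tested with limma 3.58.1 under R 4.3.3, using lmFit and eBayes (two-sided, no low-value filter) and Benjamini-Hochberg adjustment over 49293 probe sets, or over 18837 genes represented by their probe set with the highest mean; the 102 array controls were left out. "Rose" and "fell" mean an adjusted p under 0.05. Values are mean ± SD of 3 arrays; SE and 95% intervals are limma's. Exact permutation tests are two-sided. The script was tested on simulated data. The number of arrays limits precision.

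The members, lists and tests were chosen with earlier results of these data known. The text names all members, up to 4 called genes per list by size (up to 2 where none was called), and the 5 genes nearest to CPVL and to CTSA. A few of them are counted but not reported by name. CPZ and FOLH1 had no probe set of their own. Alternatives were other scalings, a replicate block, other variance models, array weights, filters, probe set summaries, a test against a minimum fold and the removal of each array.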

Additional observations from a re-analysis of the deposited data

Results flagged for a closer look

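The 18 hybridisation control probe sets, which enter none of the comparisons, were higher in shCPVL by 0.307 on the log2 scale (range over probe sets 0.16 to 0.41; exact permutation p = 0.1, the smallest possible). They were singled out as a difference between the groups in data outside the main measurement. The poly-A controls differed by 0.16 (exact permutation p = 0.2) and the background probe sets by -0.03. The differences of the members after centring each array on these controls are given with each member.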

How the results depend on the processing

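CPVL passed under all 18 alternatives (-1.29 to -0.93; -1.04 to -0.93 without any 1 array). The 3 called members became 6 after centring on the hybridisation controls, 5 with an intensity trend and 6 with array weights. Calls among all 18837 genes rose too, from 3746 to 14759 after that centring, 4883 with the trend and 9752 with array weights. The larger member counts are to be read beside this general rise. Called members numbered 1 (CPVL) against a fold of 1.2, and 3 or 4 without any 1 array. Without probe sets of type x_at and s_at, CTSA has no value.

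Genes called numbered 3746, and probe sets 9127. Centred on the hybridisation controls they were 14759 (284 higher) and 37998, with array weights 9752 and 21693, and against a fold of 1.2 they were 644 and 1538. Without x_at and s_at types 5555 probe sets were called. Leaving out 1 array gave 2372 (shCPVL replicate 2) to 3259 genes, 2424 without shCtrl replicate 1, and 5648 to 8006 probe sets. Since centring on the controls moved the median of all genes to -0.31, its counts mostly record that shift.

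Under that centring, calls in the lists numbered 7 (serine peptidases), 19 (metallocarboxypeptidases), 19 (glycan hydrolases), 10 (mannose 6-phosphate), 10 (prohormone), 18 (kinin) and 7 (cathepsins), all lower but for CPA4. With array weights they were 4, 12, 13, 9, 10, 12 and 8. Against a fold of 1.2, 1 metallocarboxypeptidase (CPA4) and 0 genes of the other 6 lists were called. Metallocarboxypeptidases reached 4 with a trend, without the lowest 40% and with the mean of probe sets, prohormone genes 6 with a trend, and kinin genes 1 without the lowest 40%. With the median of probe sets, serine peptidases and mannose 6-phosphate genes had 1 each. Leaving out 1 array gave 2 for serine peptidases, 2 to 3 metallocarboxypeptidases, 2 to 5 cathepsins, 4 to 7 glycan hydrolases, 0 to 3 mannose 6-phosphate, 0 to 2 prohormone and 2 to 3 kinin genes. The cause of these moves was not tested.

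Directions turned as follows. Centred on the hybridisation controls, the probe sets of PRCP gave -0.30, -0.28 and -0.18, of CPQ -0.090 and -0.23, of CPM -0.20, -0.30 and -0.29, of CPE -0.10 and -0.0059 and the second of CTSA -0.011, while CTSL gave -0.055, CTSO -0.064, PSAP -0.059, GNPTG -0.068 and PCSK5 -0.050. Probe sets near 0 also turned. With array weights 1 of CPM gave -0.0098 and PRCP -0.022, and the mean of the CPM probe sets was -0.0083. Without single arrays, PRCP ranged from -0.026 to 0.023, CPM 11731462_at from -0.11 to 0.058, CPM 11731461_x_at from -0.012 to 0.020 and CPM 11731463_x_at from -0.021 to 0.041. The median of the SORT1 probe sets was 0.10.

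Replicate numbers are shared between the groups. Same-numbered arrays deviated from their group means with correlations of -0.25, 0.09 and 0.22, and arrays of unlike number with -0.41 to 0.36. These values give no clear sign of pairing by number, but 3 arrays per group cannot exclude it. With the replicate block 3067 genes and 7672 probe sets were called, and CPVL stayed at -0.99. PCSK5 lost its call there, and so did CTSF, as the cathepsin list went from 5 calls to 4. In the fit over genes, 3 members were called with the block, beside 4 without it. With 3 arrays per group, differences near 0.2 lie at the limit of what passes.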
